A study of Homo sapiens with 4 samples.

Results

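ZNF28, ZNF468, ZNF320, ZNF160, ZNF611, ZNF600, ZNF415, ZNF347, ZNF665 and ZNF83 are 10 zinc finger genes that lie close together on chromosome 19. They were followed on 4 expression arrays of HEK293 cells, a human embryonic kidney line transformed with adenovirus DNA. The genes were chosen by symbol, through the RefSeq accession in each probe's name, and because several of them had been seen to differ between replicates 1 and 3 and replicates 2 and 4. They make up 10 of 17217 named genes and 30 of 71998 probes, with 1 target of 3 probes for each gene. All 4 samples belong to 1 group, untreated cells in basal growth from separate plates, and the labels give no genotype, treatment or time that sets 1 replicate apart from another. The line came from a supplier as an established line, so the replicates are plates of 1 line and not separate donors. The split into replicates 1 and 3 and replicates 2 and 4 comes from the measured values and is not a comparison of conditions. Everything said of it is therefore a description, with no test.

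C2H2 zinc finger proteins are the largest family of human transcription factors, and chromosome 19 carries many of their genes in clusters that arose by repeated local duplication. Each finger is a short fold held by a zinc ion, and a row of fingers reads a DNA sequence. Many of the family also carry a KRAB domain, which binds the scaffold protein TRIM28. TRIM28 in turn brings in the histone methyltransferase SETDB1, HP1 proteins and deacetylases, which silence the bound DNA. Much of that silencing falls on mobile elements and endogenous retroviruses. ZNF611, for example, is known to bind SVA elements, a young class of mobile element, and ZNF160 has been described as a repressor of the receptor gene TLR4. ZNF28 is also called KOX24.

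Of the 10 genes, 7 had a promoter window in RefSeq (assembly GRCh38.p14), which runs from 250 bases before the start of the gene to 50 bases after it. The first listed window of each is shown, and some of them share most of their sequence. How promoter sequence relates to the array values was not tested. CG dinucleotides, the sites of DNA methylation, are in capitals.
ZNF83 promoter, chr19:52690447-52690746, minus strand: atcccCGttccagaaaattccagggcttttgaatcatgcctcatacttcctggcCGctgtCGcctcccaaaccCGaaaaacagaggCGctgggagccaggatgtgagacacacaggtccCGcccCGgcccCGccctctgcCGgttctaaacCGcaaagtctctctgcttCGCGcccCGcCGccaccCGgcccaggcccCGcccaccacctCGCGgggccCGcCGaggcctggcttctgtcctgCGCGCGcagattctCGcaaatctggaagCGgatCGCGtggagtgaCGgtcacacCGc
ZNF611 promoter, chr19:52734995-52735294, minus strand: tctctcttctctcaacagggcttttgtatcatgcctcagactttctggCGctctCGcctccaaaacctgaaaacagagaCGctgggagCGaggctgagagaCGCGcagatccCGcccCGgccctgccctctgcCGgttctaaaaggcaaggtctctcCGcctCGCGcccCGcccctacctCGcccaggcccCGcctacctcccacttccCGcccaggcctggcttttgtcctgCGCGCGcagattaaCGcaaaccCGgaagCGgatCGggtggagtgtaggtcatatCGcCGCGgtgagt
ZNF468 promoter, chr19:52857570-52857869, minus strand: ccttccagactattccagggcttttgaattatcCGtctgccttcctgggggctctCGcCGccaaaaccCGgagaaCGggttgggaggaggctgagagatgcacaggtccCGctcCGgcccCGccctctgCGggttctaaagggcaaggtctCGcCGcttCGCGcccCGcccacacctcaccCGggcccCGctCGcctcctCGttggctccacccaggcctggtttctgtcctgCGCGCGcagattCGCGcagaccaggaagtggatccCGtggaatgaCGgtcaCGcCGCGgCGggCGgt
ZNF320 promoter, chr19:52897645-52897944, minus strand: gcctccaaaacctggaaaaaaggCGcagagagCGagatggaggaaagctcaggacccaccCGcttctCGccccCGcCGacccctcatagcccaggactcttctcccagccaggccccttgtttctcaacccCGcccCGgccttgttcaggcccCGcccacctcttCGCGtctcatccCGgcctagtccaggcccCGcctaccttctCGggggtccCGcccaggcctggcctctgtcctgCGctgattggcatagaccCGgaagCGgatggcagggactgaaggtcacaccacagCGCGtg
ZNF160 promoter, chr19:53103373-53103672, minus strand: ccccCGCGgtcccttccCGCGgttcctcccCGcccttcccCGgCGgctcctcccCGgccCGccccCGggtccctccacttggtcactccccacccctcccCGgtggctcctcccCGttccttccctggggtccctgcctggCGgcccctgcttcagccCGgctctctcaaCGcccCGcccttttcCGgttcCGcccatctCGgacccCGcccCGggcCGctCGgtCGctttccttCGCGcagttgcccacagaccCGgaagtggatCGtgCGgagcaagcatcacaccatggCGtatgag
ZNF415 promoter, chr19:53132861-53133160, minus strand: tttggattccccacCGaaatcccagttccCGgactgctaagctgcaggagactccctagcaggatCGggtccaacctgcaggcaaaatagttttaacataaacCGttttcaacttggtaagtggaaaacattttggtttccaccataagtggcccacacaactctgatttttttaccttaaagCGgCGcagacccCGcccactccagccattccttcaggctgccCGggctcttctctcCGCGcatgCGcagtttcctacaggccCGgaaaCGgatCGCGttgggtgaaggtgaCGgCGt
ZNF347 promoter, chr19:53159004-53159303, minus strand: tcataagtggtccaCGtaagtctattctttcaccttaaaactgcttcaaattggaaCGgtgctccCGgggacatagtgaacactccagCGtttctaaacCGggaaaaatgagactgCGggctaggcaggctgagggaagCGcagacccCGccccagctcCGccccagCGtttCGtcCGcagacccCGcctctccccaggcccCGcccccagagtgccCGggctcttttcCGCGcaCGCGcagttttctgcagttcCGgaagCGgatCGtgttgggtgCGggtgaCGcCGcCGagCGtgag

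These 7 windows held 17 to 30 CG dinucleotides, against a median of 14 (quartiles 4 and 28) over 35116 windows of that length. ZNF468 and ZNF160 had 30 each, ZNF83 had 29, ZNF347 had 27 and ZNF415 had 17. Over the 21 pairs of windows, identity of aligned bases ran from 53.2% to 83.8% with a median of 61.8%. The 3 closest pairs were ZNF83 with ZNF611 at 83.8%, ZNF83 with ZNF468 at 81.4% and ZNF611 with ZNF468 at 78.0%. ZNF83 and ZNF468 shared an unbroken run of 23 bases, ttctgtcctgCGCGCGcagattc. ZNF160 was at most 67.2% identical to any of the others, a value reached with ZNF83. The GC box letters GGGCGG, searched on both strands, occurred in 9 of the 10 windows listed for the 7 genes (some genes have several) and in 45.0% of all windows. CCGGAAG, the core of an ETS site, occurred in 6 of 10 and in 10.3% of all windows. CCAAT occurred in 3 of 10 against 34.6%, and TATAAA in 0 of 10 against 11.5%. ZNF320 has overlapping windows that hold the same matches, and all of these are matches of letters and not known sites.

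The arrays gave a log2 value for each probe, and a gene's level here was taken by averaging its 3 probes on the linear scale and going back to log2. Once sorted, the values of replicates 1 and 2 differed by under 0.01 at 99.97% of ranks. The same comparison of replicates 3 and 4 gave 99.99%, as separate quantile normalization of these pairs would give. The split of replicates 1 and 3 from 2 and 4 crosses those pairs, so each difference can also be read inside a pair, as replicate 2 minus 1 and replicate 4 minus 3. Across genes, Pearson's r between arrays ran from 0.949 to 0.977 and was highest for replicates 2 and 4 (0.977) and replicates 1 and 3 (0.971). Genes are not independent replicates, and these values carry no test. Of 10 genes that the line is known to express, 9 were detected by the study's rule, among them VIM, KRT8 and NEFL. PAX2 was not, at -1.63 ± 0.74 log2 units from the baseline (SD, n = 4). NEFM was detected at 0.66 ± 3.08 (SD, n = 4) but lay above the baseline on 2 of the 4 arrays only. None of the blood cell (0 of 7), hepatocyte (0 of 4) or skeletal muscle (0 of 4) markers was detected. COL1A1 was the only one of 5 fibroblast markers that was, at 0.37 ± 1.19 (SD, n = 4) and above the baseline on 2 of the 4 arrays.

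ZNF160 and ZNF28 had the lowest differences among the 10 genes. On replicates 1 to 4 the level of ZNF160 was 11.00, 6.69, 11.00 and 6.93 log2 units. Replicates 1 and 3 lay together and far above replicates 2 and 4, with no overlap. Its difference of replicates 2 and 4 minus replicates 1 and 3 was -4.19 log2 units. Its levels on replicates 2 and 4 were within the range of the 8 control genes described with the baseline, so no fold is given. The difference of ZNF160 was -4.31 for replicate 2 minus 1 and -4.06 for replicate 4 minus 3. It was -2.65 with the median of the log2 probe values in place of the linear mean. Its place as the lowest of the 10 was lost to ZNF28 with the mean of the log2 probe values, at -3.44 against -4.10, and without replicate 2, at -4.07 against -4.09. With the median it was also above ZNF320 at -4.35, ZNF468 at -3.82 and ZNF83 at -2.74. Among all 17217 genes the ZNF160 difference of -4.19 held rank 7 from the lowest. The 6 genes below it, named after their values had been seen, were PSMD5, PTN, SOX11, NEFM, PUDP and TMEM47.

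ZNF28 behaved much as ZNF160 did. On replicates 1 to 4 its level was 11.67, 7.67, 11.46 and 7.47 log2 units. Again replicates 1 and 3 were the high ones, and the difference of -3.99 log2 units held rank 10 from the lowest. Replicates 2 and 4 lay below the detection baseline, and no fold is given for this gene or for those that follow. Inside the pairs it was -4.00 and -3.98.

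ZNF468 and ZNF320 follow ZNF28 in gene order and also lay high on replicates 1 and 3. ZNF468 stood at 11.32, 8.19, 10.42 and 7.49 log2 units on replicates 1 to 4, a difference of -3.03. ZNF320 stood at 11.46, 8.64, 11.13 and 8.19 log2 units, a difference of -2.88, or -4.35 with the median of the log2 probe values. Replicate 3 was 0.90 log2 units below replicate 1 for ZNF468, the widest gap between those arrays among the genes whose arrays did not overlap.

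ZNF83, ZNF611 and ZNF600 had smaller differences, and lower levels on replicates 1 and 3. ZNF83 stood at 9.28, 6.49, 8.93 and 6.67 log2 units on replicates 1 to 4, a difference of -2.53. ZNF611 stood at 9.36, 6.99, 8.84 and 7.84, a difference of -1.69, and its value inside the pairs was -2.37 for replicate 2 minus 1 and -0.996 for replicate 4 minus 3. ZNF600 stood at 8.77, 7.35, 8.43 and 7.26, a difference of -1.29, and -2.50 with the median of the log2 probe values. In each of the 3 genes replicates 1 and 3 were again the high ones, with no overlap.

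The other three genes stood low on every array. ZNF415 stood at 6.37, 5.84, 7.34 and 6.74 log2 units on replicates 1 to 4, a difference of -0.56. ZNF347 stood at 7.11, 6.21, 8.04 and 7.24, a difference of -0.85. ZNF665 stood at 6.11, 6.68, 7.03 and 6.90, a difference of 0.22 and the only positive value of the 10. Leaving out replicates 1 to 4 in turn gave -0.24, 0.33, 0.68 and 0.11 for ZNF665. It gave -1.05, -0.12, -0.08 and -1.01 for ZNF415 and -1.32, -0.34, -0.39 and -1.37 for ZNF347. Their arrays overlapped, and for ZNF415 and ZNF347 replicate 3 was the high one and replicate 2 the low one.

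**Figure D1:**
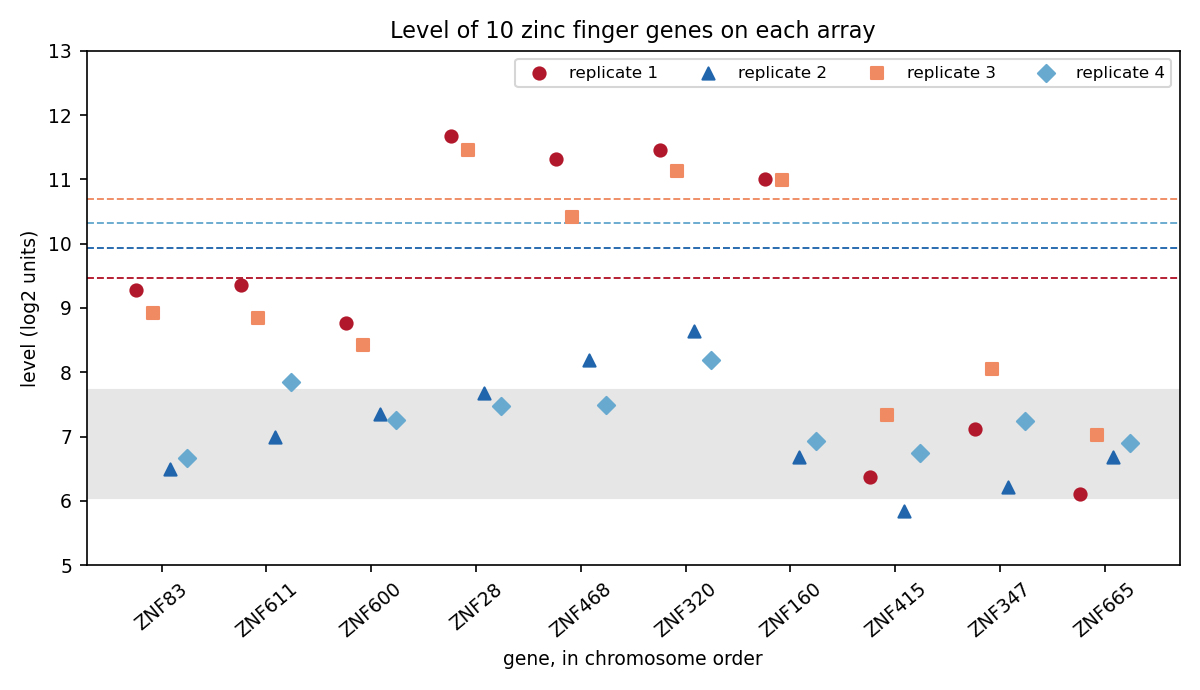
Level of each of the 10 genes in log2 units (vertical axis) on replicates 1 to 4 (points), with genes in chromosome order. Dashed lines are the detection baseline of each array in that array's colour, and the grey band is the range of 8 control genes over the 4 arrays, 6.05 to 7.72. ZNF83 to ZNF160 have replicates 1 and 3 above replicates 2 and 4, while ZNF415, ZNF347 and ZNF665 lie in or near the grey band.

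In all, 7 of the 10 genes had replicates 2 and 4 both below replicates 1 and 3, and 0 had them both above. Over all 17217 genes the shares were 22.2% below and 18.5% above. The rule chose the genes with this contrast in view, so nothing is read from that excess. The median difference was -2.11 log2 units over the 10 genes and -0.03 over all genes. Differences below -1 were found in 7 of the 10 genes and in 5.06% of all genes, and differences below -2 in 5 of the 10 and in 0.674% of all. Inside the pairs, replicate 2 was below replicate 1 in 9 of the 10 genes and replicate 4 below replicate 3 in 10 of 10. The medians over all genes were -0.01 log2 units for replicate 2 minus 1 and -0.07 for replicate 4 minus 3. The share of all genes was not counted inside the pairs, and nothing is read from these counts either.

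On replicates 1 and 3 the mean levels ran in the order ZNF28 (11.56 log2 units), ZNF320 (11.29), ZNF160 (11.00), ZNF468 (10.87), ZNF83 (9.10), ZNF611 (9.10), ZNF600 (8.60), ZNF347 (7.58), ZNF415 (6.86) and ZNF665 (6.57). The ranges of replicates 1 and 3 overlapped between ZNF160 and ZNF468, ZNF83 and ZNF611, ZNF347 and ZNF415, and ZNF415 and ZNF665. Those of ZNF320 (11.13 to 11.46) and ZNF468 (10.42 to 11.32) overlapped as well. These pairs are not ordered beyond their spread. The lower array of ZNF28 and the higher array of ZNF320 were both at 11.46 log2 units, so their ranges met without overlap. On replicates 2 and 4 the means were led by ZNF320 (8.41) and ZNF468 (7.84), with ZNF160 (6.81) in place 6 and ZNF83 (6.58) in place 9. There the ranges of ZNF320 and ZNF468 overlapped at 8.19, as did those of ZNF160 (6.69 to 6.93) and ZNF665 (6.68 to 6.90). Most levels on these 2 arrays were no higher than the highest of the 8 control genes, so a changed order is not read from them. Each probe has its own affinity, so the order is one of array signal and not of transcript number.

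Single probes carried the same split. Of the 30 probes, 20 had replicates 2 and 4 both below replicates 1 and 3 and 0 had them both above, against 21.1% and 16.8% of all probes. The gene levels are averages of these same probes and the rule used this contrast, so nothing is read from that excess. All 3 probes were below in ZNF83, ZNF28, ZNF468 and ZNF160, 2 of 3 in ZNF611, ZNF600 and ZNF320, 1 of 3 in ZNF415 and ZNF347 and 0 in ZNF665. The first probe of ZNF160, in the order of probe names, gave 12.35, 7.06, 12.17 and 6.96 log2 units on replicates 1 to 4. The second and the third stood lower on replicates 1 and 3, between 8.78 and 9.93, and at 6.30 to 7.32 on replicates 2 and 4. ZNF320 had a probe without the split, the third, at 6.83, 7.12, 6.39 and 6.30. The third probe of ZNF600 was likewise low on every array, at 5.62, 5.76, 6.89 and 6.45. The third probe of ZNF611 also overlapped, at 9.36, 6.96, 7.81 and 8.39, with replicate 4 above replicate 3. Paralogous zinc finger genes can share near-identical stretches, probe sequences were not used here, and how much signal a probe drew from a neighbour was not tested.

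**Figure D2:**
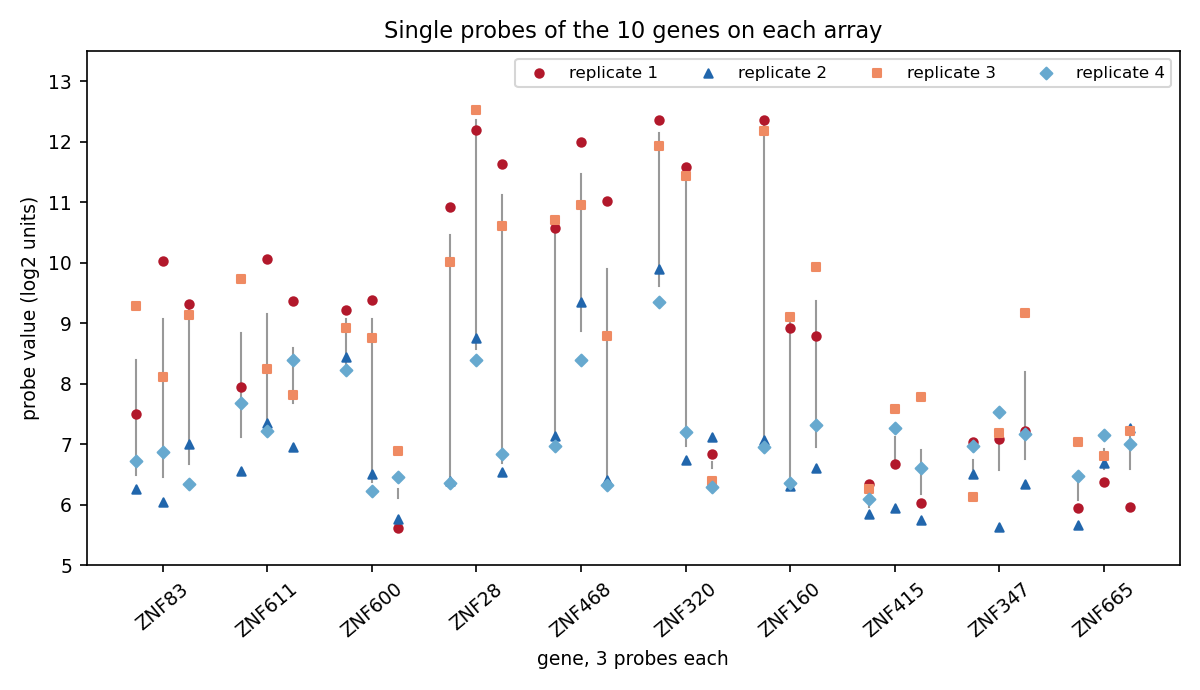
Value of each single probe in log2 units (vertical axis) on replicates 1 to 4 (points), with 3 probes for each of the 10 genes; grey lines join the mean of replicates 1 and 3 to that of replicates 2 and 4. In ZNF83, ZNF28, ZNF468 and ZNF160 all 3 probes separate the arrays, and in ZNF611, ZNF600 and ZNF320 the third probe does not.

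The study asked which transcripts HEK293 cells contain, and took as baseline the mean plus 2 SD of seminal proteins thought not to be made in the line. That baseline stood at 9.47, 9.94, 10.69 and 10.32 log2 units on replicates 1 to 4. By the study's rule, a mean distance to it above 0 over the 4 arrays, 0 of the 10 genes were detected, against 52.7% of all genes. The one-sided limma test of the distances called 0 of 10 at an adjusted p of 0.05, against 45.9% of all genes, and 0 of 10 at an unadjusted p of 0.05. With every mean distance of the 10 below 0, a test for distances above 0 could not call any of them. The mean distances ran from -3.53 to -0.25 log2 units. The count depends on the controls and the arrays: it was 7 without AFG2A and SPATA13 as controls, and 2, ZNF28 and ZNF320, without replicate 2 or without replicate 4.

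Single arrays gave another picture. ZNF28 lay 2.20 log2 units above the baseline on replicate 1 and 0.77 above it on replicate 3, but at -2.27 and -2.85 on replicates 2 and 4, with a mean distance of -0.54 ± 2.42 (SD, n = 4). ZNF320 lay at 1.99, -1.30, 0.44 and -2.14 on replicates 1 to 4, with a mean of -0.25 ± 1.84 (SD, n = 4). ZNF160 lay at 1.53, -3.25, 0.31 and -3.39, with a mean of -1.20 ± 2.50 (SD, n = 4). ZNF468 was above the baseline on replicate 1 alone, by 1.85. The other 6 genes were below it on all 4 arrays.

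Counted by array, 4 of the 10 genes were above the baseline on replicate 1, 3 on replicate 3 and 0 on replicates 2 and 4. The shares of all genes above it on replicates 1 to 4 were 58.1%, 54.2%, 47.4% and 50.2%. ZNF28, ZNF320 and ZNF160 were above on replicates 1 and 3 and below on replicates 2 and 4, as were 0.767% of all genes (132), 8 of them other zinc finger genes. The rule used this contrast, and nothing is read from that count. On replicate 2, 6 of the 10 levels were no higher than the highest of the 8 control genes that remain without AFG2A and SPATA13, and on replicate 4, 8 of 10 were. ZNF28 and ZNF160 on replicate 4 were among these, at 7.47 and 6.93 against 7.64. On replicates 1 and 3, 3 and 2 of the 10 levels were no higher than the highest control. The share of all genes in that range was not counted. Since the rule used this contrast, nothing is read from the change between arrays. Levels in that range were not separated from those of genes that the study took as silent.

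ZNF83, ZNF611, ZNF600, ZNF28, ZNF468, ZNF320 and ZNF816 are consecutive among the measured genes, and all 7 had replicates 2 and 4 below replicates 1 and 3, with differences of -1.29 to -3.99 log2 units. Of all genes, 22.2% were lower in this way. The rule chose 6 of the 7 with this contrast in view, so nothing is read from the run. ZNF816 is not one of the 10, and its difference was -1.50. After it came ERVV-1, the envelope gene of an endogenous retrovirus and the single measured gene without a ZNF symbol between the outermost of the 10. Its level was 6.49, 8.74, 7.94 and 7.81 log2 units on replicates 1 to 4, and its difference was 1.06, with overlapping arrays. ZNF160 stands next, and then ZNF415, ZNF347 and ZNF665, the genes with low levels. On the far side lay ZNF677, at -0.08.

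**Figure D3:**
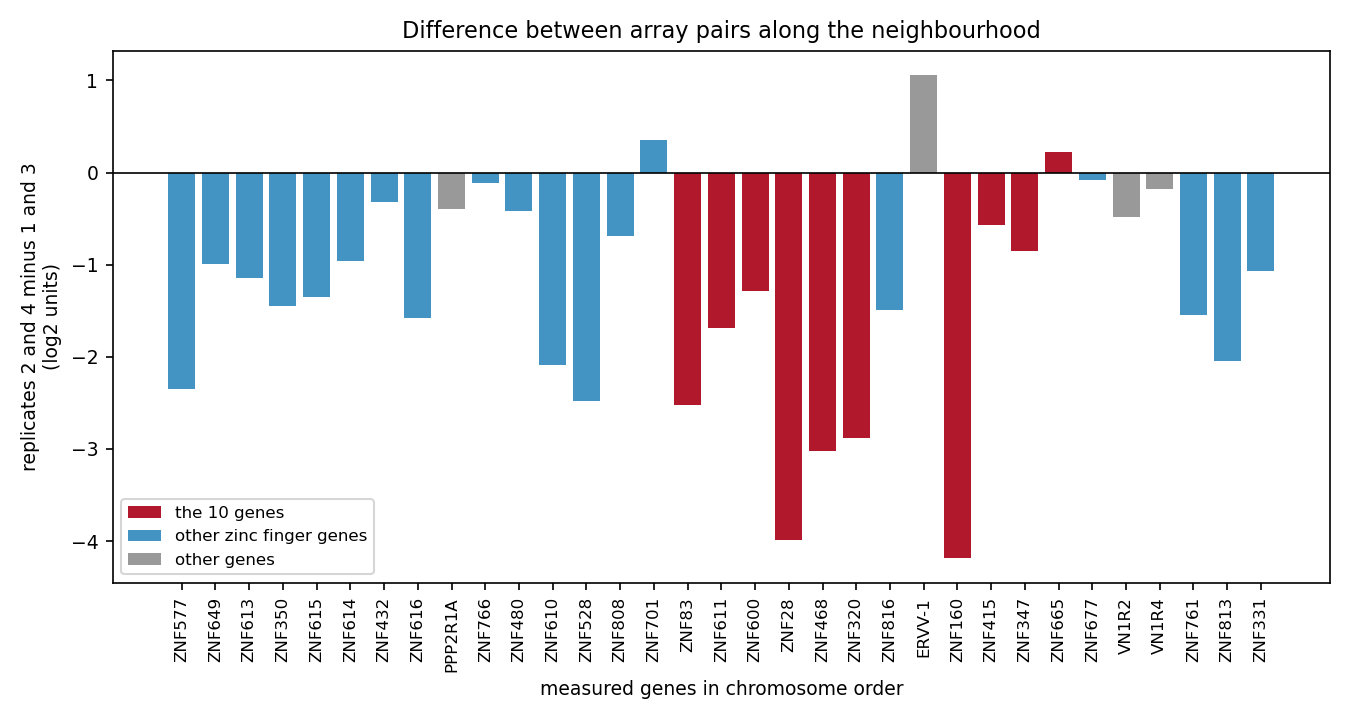
Difference of replicates 2 and 4 minus replicates 1 and 3 in log2 units (bars) for the measured genes of the neighbourhood in chromosome order, without distances. The longest bars are ZNF160 at -4.19 and ZNF28 at -3.99 log2 units, most zinc finger genes on either side also lie below 0, and ERVV-1 lies above it at 1.06.

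Neighbouring zinc finger genes outside the 10 were taken from a list of 28, of which 19 were measured. Of the 19, 14 had replicates 2 and 4 below replicates 1 and 3 and 0 above, with a median difference of -1.14 log2 units (22.2% and 18.5% of all genes, median -0.03). The lowest was ZNF528, at 9.33, 6.12, 9.25 and 7.50 log2 units on replicates 1 to 4, a difference of -2.48. ZNF577 followed at -2.35 and ZNF610 at -2.09. ZNF480 was above the baseline on all 4 arrays, with 11.58, 11.52, 11.61 and 10.83 log2 units and a difference of -0.42. Of the 19 genes, 6 were detected by the study's rule, against 0 of the 10 and 52.7% of all genes.

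Zinc finger genes elsewhere were described on the same contrast. Over all genes 22.2% were lower and 18.5% higher without overlap, with a median difference of -0.03 log2 units. Of 169 other ZNF genes on chromosome 19 outside that neighbourhood, 93 (55.0%) were lower on replicates 2 and 4 without overlap and 9 (5.33%) higher. Their median difference was -0.59 log2 units. Of 203 on other chromosomes, 73 were lower and 15 higher, with a median of -0.29. Of 1024 genes of chromosome 19 without a ZNF symbol, 189 (18.5%) were lower and 290 (28.3%) higher, with a median of 0.08. The 10 genes were not tested against any of these sets, since the contrast had chosen them. Other ZNF genes with a difference below -2 numbered 12 of 391, against 0.674% of all genes. Of the 12, 11 are on chromosome 19 and 4 in the neighbourhood. Named after their values were seen, ZNF700 at -3.57 and ZNF93 at -2.82, both outside the neighbourhood, were the lowest of them.

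**Figure D4:**
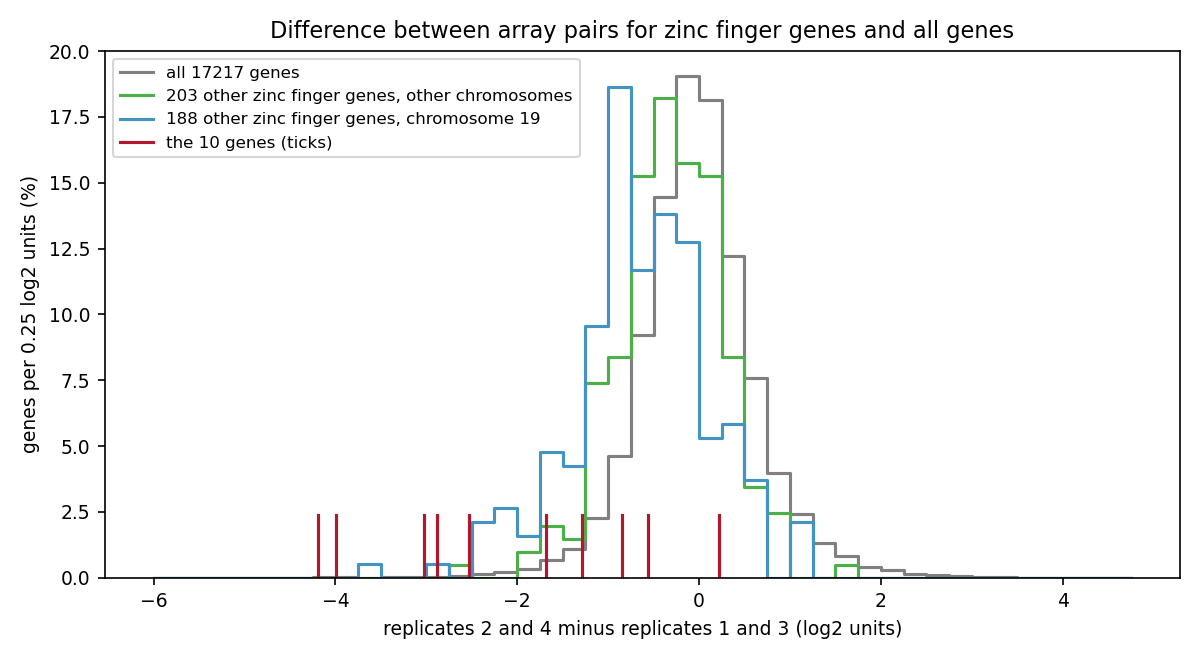
Share of genes per 0.25 log2 units (vertical axis, percent) against the difference of replicates 2 and 4 minus replicates 1 and 3 (horizontal axis, log2 units), for all 17217 genes, 203 other zinc finger genes on other chromosomes and 188 on chromosome 19. Red ticks mark the 10 genes, from -4.19 to 0.22, and the curve of the chromosome 19 zinc finger genes lies to the left of that of all genes.

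The KRAB co-repressor genes were nearly all detected and differed little between the arrays. Of 31, 30 were detected by the study's rule (52.7% of all genes), and the limma test called 29 (45.9%). Their median difference was -0.04 log2 units, with 5 lower and 3 higher without overlap, against 22.2% and 18.5% of all genes. TRIM28, the scaffold that KRAB domains bind, stood at 15.35, 15.15, 15.28 and 15.18 log2 units on replicates 1 to 4, a difference of -0.15. SETDB1, the methyltransferase it brings in, stood at 13.46, 13.41, 13.31 and 13.72, a difference of 0.18. The lowest difference was that of MORC2, a component of HUSH-linked silencing, at -0.78, and the highest that of the methyltransferase SUV39H1, at 0.99, with overlapping arrays. The single gene of the list below the baseline on all 4 arrays was the DNA methyltransferase DNMT3A.

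Lists of other kinds were set beside the same shares of all genes, 22.2% lower and 18.5% higher without overlap. Of 25 early response genes, whose transcripts are short-lived, 8 were lower and 7 higher on replicates 2 and 4 without overlap, with a median difference of 0.09 log2 units, and MYC stood at 13.45, 15.48, 13.76 and 15.50. Of 20 proliferation genes 5 were lower and 2 higher, with a median of -0.00023. Of 12 widely used reference genes 1 was lower, GAPDH, and 2 were higher, with a median of 0.16. Of the 10 HEK293 marker genes 5 were lower and 0 higher, and NEFM, a neurofilament subunit, stood at 13.57, 8.32, 13.09 and 8.08 log2 units, a difference of -5.13. Summed over the list, the HEK293 markers lay at 17.44 to 17.67 log2 units on replicates 1 and 3 and at 17.20 to 17.27 on replicates 2 and 4. The 5 fibroblast markers, with COL1A1 and LUM lower and DCN, COL3A1 and COL1A2 overlapping, summed to 11.85 to 11.89 and to 10.42 to 10.64. The sums of the 7 blood cell markers overlapped, at 9.90 to 10.84 and 10.43 to 11.07, as did those of the 4 hepatocyte markers at 8.49 to 9.62 and 8.19 to 9.42 and of the 4 skeletal muscle markers at 9.68 to 10.15 and 9.73 to 9.84. The part of these genes in the result for the zinc finger genes was not tested. In RNA from whole cultures, fewer cells that express a gene and less RNA per cell cannot be told apart.

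Genes whose profile over the 4 arrays was most like the mean of the 10, by the root-mean-square difference of centred levels, were RHOD (0.04 log2 units), LAMB3 (0.07), TAF7L (0.09), GNRH1 (0.12), ZNF440 (0.13), MAOB (0.13), RAI2 (0.13), ZNF577 (0.14), LOXL2 (0.14) and DOCK10 (0.15). The mean centred profile itself was 1.03, -1.14, 1.05 and -0.94 log2 units on replicates 1 to 4. RHOD, a small GTPase, stood at 10.03, 7.98, 10.07 and 8.09 log2 units, and LAMB3, a laminin chain, at 12.79, 10.64, 12.91 and 11.00. ZNF440 and ZNF577, zinc finger genes of chromosome 19, were the only ZNF genes among these 10. With 4 arrays, many genes reach a small difference, and likeness here is a description.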

How the data were processed

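Total RNA of 4 HEK293 cultures was labelled with Cy3 and hybridised to NimbleGen arrays of 60-base probes designed on HG18. The authors deposited log2 values for 71998 probes. The submitters' processing notes name RMA, with no role stated, and background and saturation of spots were not examined. Accessions were matched without versions to RefSeq (GRCh38.p14), which named 19125 of 24000 targets, for 17217 genes. A target's level was log2 of the mean linear value of its 3 probes, and a gene's level the mean of its targets. Distances to the baseline, the mean plus 2 SD of 10 measured seminal control genes (PYY2 was not matched), were tested with limma 3.58.1 in R 4.3.3, one-sided, with Benjamini-Hochberg adjustment over all genes. The fit's prior degrees of freedom were infinite, so every gene had the standard error 0.351. The calculation was tested on simulated data with independent noise of equal size and no baseline shift common to an array. That checks the code and not the calls made here. Promoter windows were aligned globally with Biopython 1.88. The 10 genes, all lists and the split were chosen with earlier results of these data known. The rule for named genes took the 10, the 10 nearest profiles, TRIM28, 2 control genes and extremes of lists; other genes named were chosen after their values were seen. Precision is limited by the 4 arrays.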

Additional observations from a re-analysis of the deposited data

How the results depend on the processing

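No test paired samples of different groups, since the samples form 1 group; differences inside the pairs that share a distribution are descriptions. The difference kept its sign for the 7 genes without overlap under every alternative run. Inside the pairs and with 1 replicate left out it could not change sign. These genes were picked out by having replicates 2 and 4 both below replicates 1 and 3. Its median over the 10 genes, -2.11 log2 units, was -2.58 with the median of the log2 probe values, -2.58 for replicate 2 minus 1 alone and -1.71 for replicate 4 minus 3 alone, and ran from -2.36 to -1.89 when 1 replicate was left out. The number of genes with no overlap ran from 7 to 10 when 1 replicate was left out and was 9 with quantile normalization of all 4 arrays. With 1 replicate left out the criterion is looser and the count can only stay or rise. Nothing is read from that range.

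The height of the baseline decided the detection calls. The count of 0 genes became 4 with a baseline of 1 SD, 7 without SPATA5 (AFG2A) and SPATA13 as controls and 5 with olfactory receptor genes as controls. It ran from 0 to 2 when 1 replicate was left out, and it was 2, ZNF28 and ZNF320, both without replicate 2 and without replicate 4. With 1 SD the mean distances above 0 were 0.78 for ZNF28, 0.57 for ZNF468, 1.07 for ZNF320 and 0.12 for ZNF160. Without SPATA5 and SPATA13 they were 0.064 for ZNF83, 0.48 for ZNF611, 0.18 for ZNF600, 1.79 for ZNF28, 1.57 for ZNF468, 2.07 for ZNF320 and 1.13 for ZNF160. With olfactory receptor controls they were 0.24 for ZNF611, 1.55 for ZNF28, 1.33 for ZNF468, 1.83 for ZNF320 and 0.88 for ZNF160. Without replicate 2 they were 0.04 for ZNF28 and 0.10 for ZNF320, and without replicate 4 they were 0.23 and 0.38. Over the 4 sets of 3 arrays the distance ran from -1.45 to 0.23 for ZNF28 and from -0.998 to 0.38 for ZNF320. A lower baseline and fewer arrays make up these alternatives by construction. Signal over background of single spots was not used here.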
